A study of Mus musculus with 6 samples.

Results

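The genes described here encode the enzymes that make cholesterol, fatty acids and glycerolipids, and the factors that control their transcription. The list holds 37 genes: 3 regulators, 17 enzymes of the sterol branch, 13 enzymes of the fatty acid branch and 4 enzymes of glycerolipid synthesis. Of these, 35 were found by symbol among the 37755 entries of the deposited expression table, and *Msmo1* was found under its older symbol *Sc4mol*. The remaining gene, the sterol enzyme *Mvd*, was not matched to an entry and was not analysed here. Where a symbol was on several entries, the entry with the highest mean was taken. The rule that picks the genes uses their names only.

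Cholesterol is built from acetyl-CoA through mevalonate, isoprenoid diphosphates, squalene and lanosterol. Fatty acids are built from the same acetyl-CoA by way of malonyl-CoA, and are then elongated and desaturated. Both branches are transcribed under sterol regulatory element binding proteins (SREBPs), membrane-bound factors that are released by proteolysis when sterols are scarce and held back in the endoplasmic reticulum by INSIG proteins when sterols are plentiful. *Srebf2* encodes the form best known for the sterol branch, and *Srebf1* the form best known for fatty acid synthesis. In the mammary gland these enzymes are induced at lactation, when the alveolar epithelium secretes milk fat.

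The 6 libraries were 3 cultures of primary epithelial cells from the mouse mammary gland (MEC 1 to 3) and 3 tumor cell lines called ME-KO, which carry the numbers 199, 233 and 336. Each MEC preparation pooled the glands of 3 to 5 virgin C57/Bl6J females aged 10 to 12 weeks that carried *Wap-Cre* and intact *Mapk8* and *Mapk9*. These cells grew on collagen I in medium with fetal calf serum, EGF and insulin. The ME-KO lines came from tumors of parous mice in which *Wap-Cre*, switched on in luminal epithelium by pregnancy and lactation, deleted the JNK genes *Mapk8* and *Mapk9*. After 2 passages on collagen I the tumor cells were kept on standard dishes in growth medium with fetal bovine serum. The paper gives the same strain background for all its mice. It describes ME-KO tumor cells from adenocarcinoma, from adenosquamous carcinoma and from tumors with traits of both, and these types are not matched to the line numbers here. Genotype, tumor origin, age of the mice, parity, medium and time in culture differ together between the groups and cannot be told apart. Each tumor line is a separate line grown from its own tumor, so a value seen in 1 line has no replicate.

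All values are FPKM, read fragments scaled by transcript length and library size, so levels can be set side by side between genes. The comparison asks whether lipid synthesis genes are expressed at a different level in JNK-deficient tumor cells than in MEC. It was tested with limma on log2(FPKM + 1) over all 12461 entries with a mean FPKM of at least 1, and a gene was called with a Benjamini-Hochberg adjusted p under 0.05 and a log2 difference beyond 0.75. Adding 1 to each value understates the difference of weakly expressed genes.

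The targeted genes were lower in every line. *Mapk8* had a mean FPKM of 22.5 ± 2.98 in MEC and 3.47 ± 2.30 in ME-KO cells (SD, n = 3 each, limma adjusted p = 0.0146), and *Mapk9* had 22.7 ± 1.53 and 4.61 ± 2.61 (limma adjusted p = 0.0122). Summed FPKM per library ran from 558000 to 638400, and relative depth read from small values was within 0.92 and 1.30 of MEC 1. The 7 luminal markers were present in all libraries, with a summed FPKM of 6282 to 9981 in MEC and 1219 to 2550 in ME-KO cells. The 9 milk and alveolar markers summed to 1125 to 1925 in MEC and 0.402 to 12.6 in ME-KO cells, with *Csn2* and *Wap* listed at 0 in all 6 libraries. Most of the MEC sum was *Csn3*, at 1068, 1184 and 1871 FPKM in MEC 1, 2 and 3. Of the 9 markers, 4 were under 1 FPKM in every library, and *Btn1a1* lay within the MEC range in line 233 (12.3 FPKM). The 10 adipocyte markers summed to at most 17.1 FPKM in any library, with *Plin1* listed at 0 in all 6. Within that sum, single markers moved in opposite directions. *Fabp4* had a mean FPKM of 6.92 in MEC and 0.686 in ME-KO cells, and every line lay below every MEC preparation. *Pparg* lay above the MEC range in lines 233 and 336 (7.04 and 3.74 FPKM, MEC mean 0.545) and within it in line 199. Of the 10 adipocyte markers, 3 were tested and none was called. The 7 sebaceous markers were each under 1 FPKM in all 6 libraries. In libraries of mixed cells, fewer cells of a type and less RNA per cell cannot be told apart.

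SREBPs act through short sterol regulatory elements near gene starts, often beside a CCAAT box bound by NF-Y. The 250 bases before each annotated start were taken from RefSeq (GRCm38.p6), which had 37 windows for 29 of the genes and none for the other 8. The core TCACNCCA was searched on both strands and was found in 4 windows of 4 genes (10.8% of the windows), against 3.67% of all 32851 promoter windows of that length. The box CCAAT on either strand was in 24 of the 37 windows (64.9%), against 33.8% of all windows. The motif CACGTG, an E-box that SREBP-1 is also known to bind, was in 5 windows (13.5%), against 6.02% of all windows. Among the 11480 windows of tested genes, the shares of TCACNCCA, CCAAT and CACGTG were 3.28%, 35.5% and 8.25%. The 4 genes with a TCACNCCA core were *Msmo1* and *Hmgcs1* of the sterol branch, the regulator *Srebf2* and the glycerolipid enzyme *Gpam*, and 120 bases of each are shown because they hold the letters of that core. The capitals mark the core and, where it lies within the stretch, the CCAAT box on either strand (ATTGG on the other). The stretches are chr8:64733692-64733811 on the minus strand for *Msmo1*, chr13:119690158-119690277 on the plus strand for *Hmgcs1*, chr15:82147051-82147170 on the plus strand for *Srebf2* and chr19:55127340-55127459 on the minus strand for *Gpam*.
Msmo1: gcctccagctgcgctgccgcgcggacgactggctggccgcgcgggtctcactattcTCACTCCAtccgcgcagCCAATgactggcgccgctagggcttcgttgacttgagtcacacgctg
Hmgcs1: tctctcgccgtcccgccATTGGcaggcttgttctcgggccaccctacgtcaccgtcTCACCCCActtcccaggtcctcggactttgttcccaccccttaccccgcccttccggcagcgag
Srebf2: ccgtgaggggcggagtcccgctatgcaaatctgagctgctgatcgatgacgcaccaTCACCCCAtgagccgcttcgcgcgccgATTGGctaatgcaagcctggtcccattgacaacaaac
Gpam: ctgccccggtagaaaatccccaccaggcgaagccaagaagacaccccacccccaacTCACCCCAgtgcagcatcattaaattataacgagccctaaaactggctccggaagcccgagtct
A match is a string of letters and not a measured binding site. None of these 4 genes was called between the groups, and their levels are given below with their branches.

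Of the 37 genes, 35 passed the filter on low values and were tested. *Srebf1* alone was called, as lower in ME-KO cells, and no gene of the list was called higher. Over all tested entries 7.26% were called lower and 2.64% higher. Of the 35 genes, 6 had an unadjusted limma p under 0.05, and 2 of them, *Srebf1* and *Fdps*, an adjusted p under 0.05, beside 28.2% and 10.5% of all tested entries. The median log2 difference was -0.21 over the 35 genes and 0.01 over all tested entries, with 27 of the 35 below 0. The 3 lines did not overlap with the 3 MEC libraries for 5 genes that lay lower (*Srebf1*, *Pmvk*, *Fdps*, *Dhcr7* and *Acss2*) and 2 that lay higher (*Fasn* and *Dgat2*). Among all tested entries 18.7% lay lower without overlap and 18.5% higher, and 5 and 2 of 35 are smaller shares than these.

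**Figure D1:**
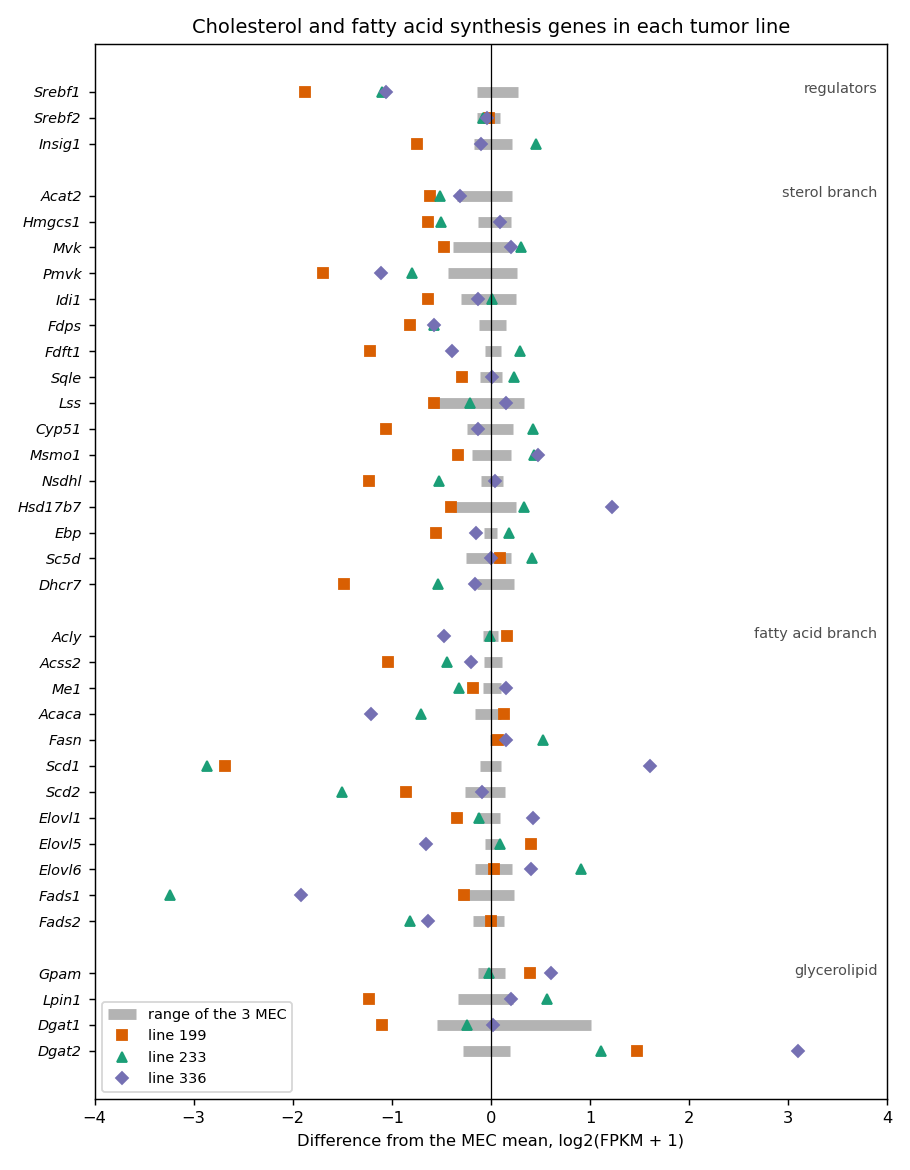
Difference of each tumor line from the mean of the 3 MEC libraries, on the log2(FPKM + 1) scale, for the 35 tested genes grouped by role. Grey bars span the 3 MEC libraries, squares are line 199, triangles line 233 and diamonds line 336. The squares lie left of the bars for 14 of the 16 sterol genes, and Scd1 lies far left in lines 199 and 233 and right in line 336.

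Among the regulators, *Srebf1* fell in ME-KO cells, and the *Srebf2* levels of all 3 lines lay inside the MEC range. *Srebf1* (chr11:60199089-60222581, GRCm38) had an FPKM of 45.2, 45.1 and 60.5 in MEC 1, 2 and 3, and of 12.9, 22.7 and 23.5 in lines 199, 233 and 336. All 3 lines lay below all 3 MEC preparations, with line 199 the lowest. The means were 50.3 ± 8.86 and 19.7 ± 5.91 (SD, n = 3), a log2 difference of -1.34 with an SE of 0.27 and a 95% interval of -1.98 to -0.70 (limma adjusted p = 0.0292). The exact permutation test (two-sided) gave p = 0.1, the smallest it can give with 3 against 3. The call was lost when any MEC preparation was left out, with a limma adjusted p of 0.103, 0.0971 and 0.108 without MEC 1, 2 and 3, and was kept when any of the lines was left out.

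*Srebf2* (chr15:82147181-82205379) had an FPKM of 57.0, 55.2 and 48.2 in MEC and 52.6, 50.5 and 52.0 in lines 199, 233 and 336. The difference was -0.04 on the log2 scale with a 95% interval of -0.36 to 0.27. The level of *Srebf1* relative to *Srebf2* within a library was 0.793, 0.818 and 1.26 in MEC and 0.245, 0.450 and 0.452 in the lines. *Insig1*, which retains SREBPs in the endoplasmic reticulum and is itself an SREBP target, had 53.9, 41.2 and 45.0 in MEC and 27.2, 64.1 and 43.2 in the lines. Line 199 lay under the MEC range, line 233 over it and line 336 inside it, and the group difference was -0.13 (limma adjusted p = 0.813).

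**Figure D2:**
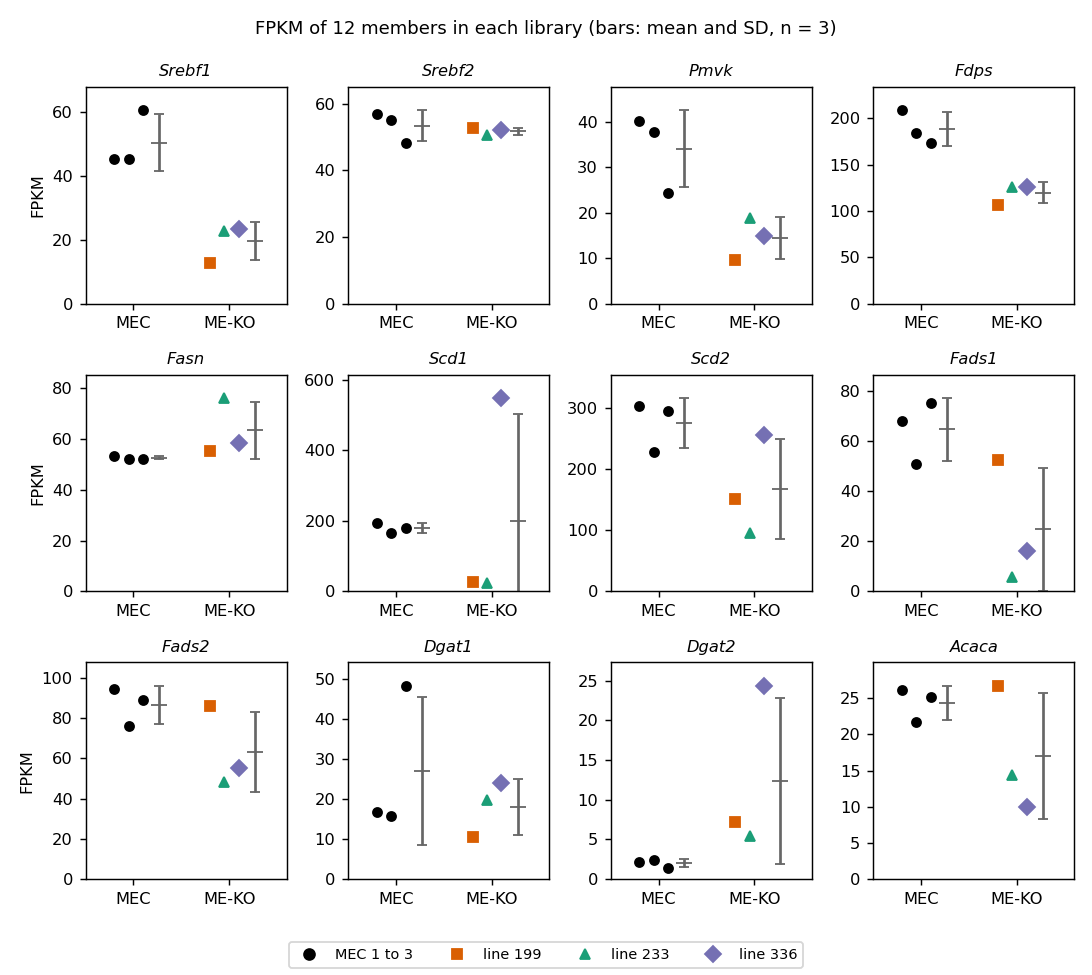
FPKM of 12 genes of the list in each library, with circles for MEC 1 to 3, squares for line 199, triangles for line 233 and diamonds for line 336. The bars give the mean and SD of each group (n = 3), the vertical axes start at 0, and the lower SD bar of Scd1 in ME-KO cells runs below 0 and is not drawn there. Srebf1, Pmvk and Fdps are lower in all 3 lines, whereas Scd1 is low in lines 199 and 233 and high in line 336.

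None of the 16 measured sterol genes was called by limma, and 3 of them (*Fdps*, *Pmvk* and *Acat2*) had an unadjusted p under 0.05. Their median log2 difference was -0.25, with 12 below 0 and 4 above. It was -0.04 without line 199, -0.15 without MEC 1 and -0.41 without MEC 3. In 3 of them, *Fdps* and *Pmvk* of the steps from mevalonate to isoprenoids and *Dhcr7* at the end of the pathway, all lines lay under all MEC. *Fdps*, farnesyl diphosphate synthase (chr3:89093588-89101959), had an FPKM of 209, 184 and 174 in MEC and 107, 126 and 126 in lines 199, 233 and 336. Every line lay under every MEC preparation, with little spread among the lines. The difference was -0.65 with an SE of 0.14 and a 95% interval of -1.001 to -0.31 (limma adjusted p = 0.0390), which did not reach the fold threshold. The value of *Fdps* is uncertain where reads were shared, because its transcript shares 98.9% identity over 76.8% of its length with the pseudogene *Gm3571* and shares 26.7% of its exon bases with *Gm43738* on the same strand.

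*Pmvk*, phosphomevalonate kinase (chr3:89454541-89469013), had an FPKM of 40.1, 37.8 and 24.4 in MEC and 9.59, 18.7 and 14.9 in the lines. The groups did not overlap, with line 199 lowest and MEC 3 the lowest of the MEC. Its difference of -1.20 (SE 0.30) missed the threshold at a limma adjusted p of 0.0534. *Dhcr7*, which catalyses the last step to cholesterol, had 64.3, 66.2 and 83.8 in MEC and 24.7, 48.8 and 63.4 in the lines. Line 336 came within 1 FPKM of the lowest MEC preparation, line 199 lay far under it, and the difference was -0.73 (limma adjusted p = 0.229).

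The other enzymes of the list that act before squalene and had values, *Hmgcs1*, *Acat2*, *Mvk* and *Idi1*, overlapped between the groups. *Hmgcs1*, HMG-CoA synthase, had an FPKM of 142, 116 and 112 in MEC and 78.5, 86.1 and 131 in the lines, so that lines 199 and 233 lay under the MEC range and line 336 within it. *Acat2*, which joins acetyl-CoA units, had 44.5, 42.1 and 29.9 in MEC and 24.6, 26.4 and 30.7 in the lines, with line 336 just inside the MEC range. The transcript of *Acat2* is 97.7% identical to *Acat3* over 65.6% of its length. *Mvk*, mevalonate kinase, had 22.5, 22.5 and 14.7 in MEC and 13.8, 24.4 and 22.6 in the lines. *Idi1*, the isomerase of isopentenyl diphosphate, had 118, 102 and 79.7 against 63.0, 99.5 and 90.1. Line 199 was the lowest of the lines for each of these 4 enzymes, and log2 differences between the groups were -0.48 for *Acat2*, -0.35 for *Hmgcs1*, -0.25 for *Idi1* and 0.01 for *Mvk*.

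Several enzymes from squalene synthesis onward had lines on both sides of the MEC range, as *Mvk* did, while *Dhcr7* lay under it in every line. *Fdft1*, squalene synthase, had an FPKM of 52.6, 47.2 and 46.8 in MEC and 20.4, 60.2 and 36.8 in lines 199, 233 and 336. *Cyp51*, the lanosterol demethylase, had 85.6, 74.3 and 62.0 in MEC and 34.6, 98.6 and 66.8 in the lines. For both genes line 199 lay under the MEC range and line 233 over it. *Nsdhl*, of the demethylation complex, had 40.2, 34.4 and 36.4 in MEC and 15.2, 25.3 and 38.1 in the lines, with line 336 inside the MEC range. *Hsd17b7*, of the same complex, had 21.5, 23.6 and 14.9 in MEC and 14.6, 24.97 and 47.2 in the lines, with line 336 standing apart at 2.36 times the MEC mean. *Msmo1*, the sterol methyl oxidase, had 127.9, 109.9 and 97.3 in MEC and 88.2, 151 and 154 in the lines, with line 199 under the MEC range and the others over it. The remaining sterol genes *Sqle*, *Lss*, *Ebp* and *Sc5d* had log2 differences from -0.21 to 0.17.

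Line 199 held the lowest sterol levels. It was the lowest of the 3 lines for 15 of the 16 sterol genes, *Sc5d* being the exception, against 35.1% of all tested entries. It lay below all 3 MEC preparations for 14 of the 16 genes and above them for none, where 39.1% of all tested entries lay below and 40.2% above. The median difference of its sterol genes from the MEC mean was -0.63 on the log2 scale, from -1.70 for *Pmvk* to 0.09 for *Sc5d*. With a difference beyond 0.75 also required, 6 of the 16 lay below. In line 233, 8 sterol genes lay above the MEC range and 6 below it, with a median of 0.10, beside 37.4% and 37.9% of all tested entries. In line 336, 3 lay above and 5 below, with a median of -0.06, beside 39.2% and 37.4% of all tested entries. The summed FPKM of the sterol genes was 1154, 1035 and 921 in MEC, and it was 638, 989 and 989 in lines 199, 233 and 336.

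Line 199 also differed from the other lines in its cell type markers. Its 8 basal or myoepithelial markers summed to 2276 FPKM, against 10.6 and 58.7 in lines 233 and 336 and 1558 to 2854 in MEC. Of these 8, *Krt5*, *Krt14* and *Trp63* lay above the MEC range in line 199 and *Krt17* within it, while *Acta2*, *Cnn1*, *Myh11* and *Oxtr* lay below it, *Myh11* at 0.0812 FPKM against a MEC mean of 32.3 and *Oxtr* at 0.0126 against 12.0. Its 8 fibroblast markers summed to 1100 FPKM, against 2.42 and 4.22 in the other lines and 99.3 to 191 in MEC. That sum came mostly from *Col1a1* (599.7) and *Col1a2* (408), and 5 of the 8 lay above the MEC range in line 199 while *Dcn*, *Lum* and *Fap* lay below it, *Dcn* at 0.311 FPKM against a MEC mean of 5.13. The part of these in its sterol values was not tested. Both *Fdft1* and *Hmgcs1* overlap other genes on the opposite strand, *Ctsb* by 18.3% of exon bases and *Gm48342* by 12.1%, and whether the libraries keep strand is not given in the sources used here.

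**Figure D3:**
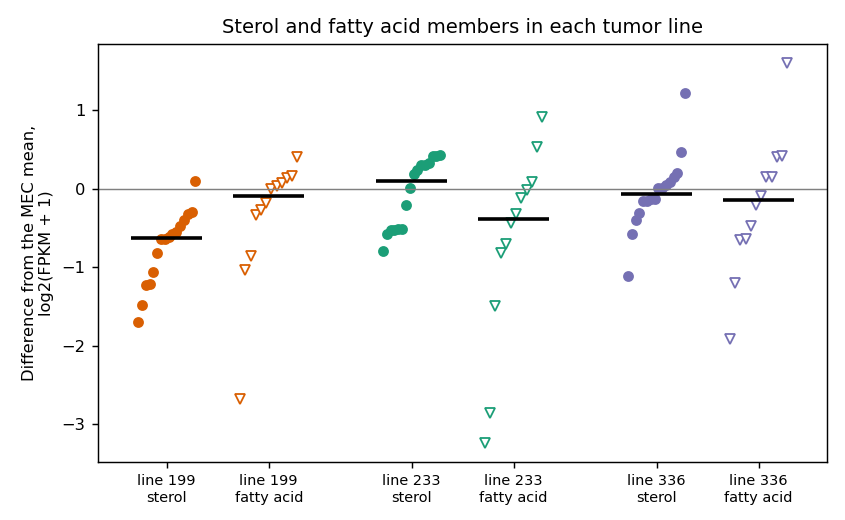
Difference from the MEC mean, on the log2(FPKM + 1) scale, of each of the 16 sterol genes (filled circles) and 12 tested fatty acid genes (open triangles) in lines 199, 233 and 336, with genes in rising order within a column and horizontal bars at the medians. In line 199 the sterol median is -0.63 and the fatty acid median -0.09, in line 233 they are 0.10 and -0.38, and in line 336 they are -0.06 and -0.15.

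None of the 12 fatty acid genes tested was called by limma, and 1 of them, *Fads1*, had an unadjusted p under 0.05. Their median log2 difference was -0.30, with 10 below 0 and 2 above. Without line 199 it was -0.30 as well, and with *Acss2* left out by a filter at a mean FPKM of 5 it was -0.12. Of the genes that supply carbon units and NADPH, *Acly* and *Me1* overlapped between the groups. *Acly*, ATP citrate lyase, which makes cytosolic acetyl-CoA, had an FPKM of 78.5, 75.2 and 70.7 in MEC and 83.9, 74.2 and 53.7 in lines 199, 233 and 336. *Me1*, malic enzyme, a source of NADPH, had 56.4, 61.2 and 53.9 in MEC and 50.2, 45.6 and 63.6 in the lines. *Acss2*, which makes acetyl-CoA from acetate, was weakly expressed at 4.02, 3.50 and 3.43 in MEC and lay lower in every line at 1.27, 2.42 and 3.04 (log2 difference -0.56, limma adjusted p = 0.225).

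*Fasn*, fatty acid synthase, had an FPKM of 53.2, 52.2 and 52.1 in MEC and 55.3, 76.1 and 58.5 in the lines. All 3 lines lay above all 3 MEC, most of all line 233, though line 199 did so by little more than 2 FPKM. The difference was 0.25 with a 95% interval of -0.14 to 0.64 (limma adjusted p = 0.350). *Acaca*, the acetyl-CoA carboxylase that makes malonyl-CoA for synthesis, had 26.2, 21.7 and 25.1 in MEC and 26.8, 14.4 and 9.94 in the lines. Line 199 lay over the MEC range and the other lines under it, and the difference of -0.59 had a limma adjusted p of 0.301. Without line 199, singled out by its value, it was -0.96. Over the 13 alternative fits the limma adjusted p of *Acaca* ran from 0.0307 to 0.543. The transcript of *Acaca* is 99.2% identical to the pseudogene *Gm5182* over 64.3% of its length. *Acacb*, the carboxylase tied to the control of oxidation, was under 1 FPKM in all 6 libraries and was not tested.

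Among the 12 fatty acid genes tested, the desaturases *Scd1* and *Fads1* held the widest range among the lines. *Scd1* (chr19:44394455-44407879), a stearoyl-CoA desaturase that makes monounsaturated fatty acids, had an FPKM of 194, 166 and 180.3 in MEC and of 27.1, 23.8 and 549 in lines 199, 233 and 336. The MEC preparations were close together, lines 199 and 233 lay far below them and line 336 far above. Log2 differences from the MEC mean were -2.69, -2.86 and 1.60 in lines 199, 233 and 336. The group difference of -1.31 therefore had an SE of 1.16 (limma adjusted p = 0.492), while without line 336 it was -2.77. Line 336 was singled out by its value, so the fit without it is no test of the group difference. Over the 13 alternative fits the limma adjusted p of *Scd1* ran from 0.00285 to 0.806. *Scd2* (chr19:44293674-44306864), the paralog beside it, had 303, 229 and 296 in MEC and 151, 96.3 and 257 in the lines. Lines 199 and 233 lay under the MEC range and line 336 within it (log2 difference -0.82, limma adjusted p = 0.196). Within a library, *Scd1* stood at 0.609 to 0.727 of *Scd2* in MEC, at 0.180 and 0.248 in lines 199 and 233 and at 2.14 in line 336. The 2 transcripts are 95.5% identical over 11.4% of that of *Scd2*.

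*Fads1* and *Fads2*, neighbouring desaturases that make polyunsaturated fatty acids from dietary precursors, separated the lines in another order. *Fads1* (chr19:10182888-10196877) had an FPKM of 68.0, 50.7 and 75.1 in MEC, 52.5 in line 199, 5.86 in line 233 and 16.2 in line 336. Line 199 lay within the MEC range, while lines 233 and 336 were at 9.06% and 25.1% of the MEC mean. The group difference was -1.81 with an SE of 0.70 (limma adjusted p = 0.157), and without line 199, singled out by its value, it was -2.58. Over the 13 alternative fits the limma adjusted p of *Fads1* ran from 0.0146 to 0.349. *Fads2* (chr19:10062765-10101746) had 94.5, 75.8 and 89.0 in MEC and 85.8, 48.4 and 55.0 in the lines, the same order with smaller steps (log2 difference -0.49, limma adjusted p = 0.239). *Fads1* relative to *Fads2* was 0.669 to 0.844 in MEC, 0.611 in line 199, 0.121 in line 233 and 0.294 in line 336. All 4 desaturase genes lie on chromosome 19, where the 388 tested entries had a median difference of 0.17, 0.05 and 0.25 in lines 199, 233 and 336.

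**Figure D4:**
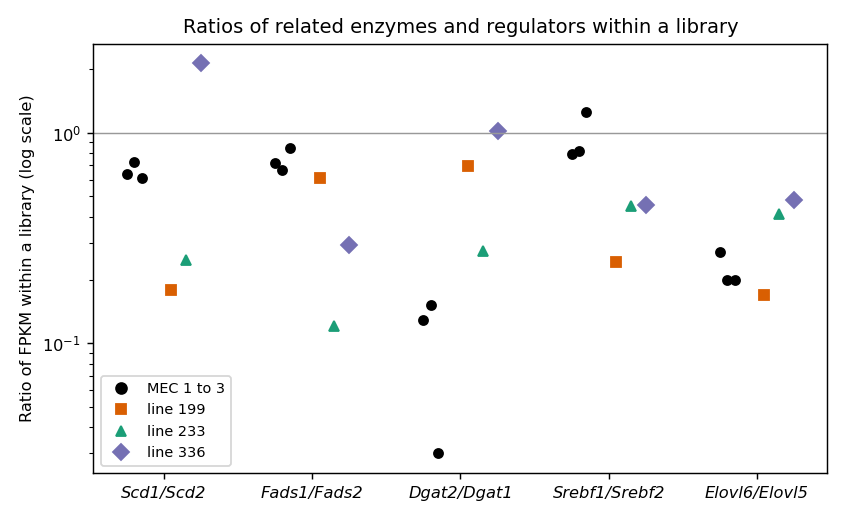
Ratio of the FPKM of 2 related genes within each library, on a log axis, with circles for MEC 1 to 3, squares for line 199, triangles for line 233 and diamonds for line 336. Scd1 over Scd2 is under the MEC values in lines 199 and 233 and above them in line 336, Dgat2 over Dgat1 is above the MEC values in all 3 lines, and Srebf1 over Srebf2 is under them in all 3.

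The elongases overlapped between the groups. *Elovl5*, which lengthens polyunsaturated fatty acids, had an FPKM of 39.7, 40.9 and 44.3 in MEC and 55.5, 44.2 and 25.9 in lines 199, 233 and 336. *Elovl6*, which lengthens palmitate, had 10.8, 8.12 and 8.82 in MEC and 9.43, 18.1 and 12.5 in the lines. *Elovl1*, an elongase of saturated very long chains, had 60.1, 58.4 and 51.0 in MEC and 44.4, 52.0 and 75.8 in the lines. Line 199 was highest of the lines for *Elovl5*, line 233 for *Elovl6* and line 336 for *Elovl1*, and none of the group differences, from -0.05 to 0.45, passed the test.

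The spread among the 12 fatty acid genes did not follow the sterol pattern. Line 199 was the lowest line for 4 of the 12, against 15 of the 16 sterol genes and 35.1% of all tested entries. Above and below the MEC range lay 4 and 5 fatty acid genes in line 199, beside 40.2% and 39.1% of all tested entries. In line 233 they numbered 2 and 7, beside 37.4% and 37.9%, and in line 336 they numbered 5 and 6, beside 39.2% and 37.4%. The median differences were -0.09, -0.38 and -0.15. Summed FPKM of the branch was 989, 843 and 950.2 in MEC and 644, 501 and 1180 in the lines, and in line 336 *Scd1* made up 549 of the 1180. As a share of the MEC mean, sterol and fatty acid sums were 61.5% and 69.4% in line 199 and 95.4% and 54.1% in line 233. Line 336 had 95.4% of the sterol sum and 127% of the fatty acid sum. *Scd1* and *Scd2* weighed heavily in the fatty acid sums, at 180 and 276 FPKM of a MEC mean of 927. They stood at 27.1 and 151 in line 199, 23.8 and 96.3 in line 233, and 549 and 257 in line 336. The fatty acid shares therefore do not describe the other genes of the branch. The difference between the branches was described and not tested.

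The lines varied more among themselves than the MEC preparations did, in these genes as in most tested entries. The ratio of the highest to the lowest value was larger among the lines than among the MEC for 12 of 12 fatty acid genes and 12 of 16 sterol genes, and for 29 of all 35 genes tested, beside 74.5% of all tested entries. The median ratio among the lines was 2.03 for fatty acid genes and 1.73 for sterol genes, against 1.68 over all tested entries. Among the MEC it was 1.18 and 1.35, against 1.33.

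None of the 4 glycerolipid enzymes was called by limma, and 1 of them, *Dgat2*, had an unadjusted p under 0.05 and lay higher in every line. *Dgat2* (chr7:99153658-99182719), which adds the last acyl chain to make triglyceride, had an FPKM of 2.15, 2.39 and 1.45 in MEC and 7.24, 5.40 and 24.4 in lines 199, 233 and 336. The groups did not overlap, with lines 199, 233 and 336 at 3.63, 2.71 and 12.2 times the MEC mean. The difference was 1.89 with an SE of 0.52 (limma adjusted p = 0.0697), and without line 336 it was 1.29 (limma adjusted p = 0.0445). Line 336 was singled out by its value, so the fit without it is no test of the group difference. Over the 13 alternative fits the limma adjusted p of *Dgat2* ran from 0.0254 to 0.216. Of these fits 3 called it, that without line 336 among them. *Dgat1*, the other enzyme of that step, had 16.8, 15.8 and 48.3 in MEC and 10.4, 19.8 and 23.9 in the lines. MEC 3 stood apart from the other MEC, and the difference was -0.44 with all 6 libraries and 0.07 without MEC 3. The level of *Dgat2* relative to *Dgat1* was 0.0300 to 0.152 in MEC and 0.695, 0.274 and 1.02 in the lines.

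*Gpam*, the mitochondrial enzyme that starts glycerolipid synthesis, had an FPKM of 4.64, 4.17 and 5.24 in MEC and 6.44, 4.60 and 7.65 in the lines. Lines 199 and 336 lay above the MEC range and line 233 inside it (log2 difference 0.33). *Lpin1*, a phosphatidate phosphatase, had 4.55, 3.11 and 5.05 in MEC and 1.196, 6.67 and 4.94 in the lines, with line 199 under the MEC range and line 233 over it.

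Other genes of lipid metabolism were read from lists that leave out the 37 genes. Of 85 with values 69 were tested, 2 were called higher and 3 lower, beside 2.64% and 7.26% of all tested entries. Among 14 tested genes of sterol uptake, transport and efflux, 1 was called higher and 3 lower, with a median difference of -0.53. None of 10 other sterol synthesis and SREBP control genes was called (median 0.03), none of 14 other fatty acid genes (median -0.36), 1 of 16 glycerolipid and lipid droplet genes (higher, median 0.30) and none of 15 oxidation genes (median 0.02). At an unadjusted limma p under 0.05 there were 6 of the 14 uptake, transport and efflux genes, 2 of the 10 other sterol genes, 2 of the 14 other fatty acid genes, 6 of the 16 glycerolipid and droplet genes and 3 of the 15 oxidation genes, beside 28.2% of all tested entries.

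*Soat1*, which esterifies cholesterol for storage, had an FPKM of 7.23, 7.97 and 6.30 in MEC and 13.1, 22.1 and 24.97 in lines 199, 233 and 336. It rose in every line (log2 difference 1.33, SE 0.26, limma adjusted p = 0.0279). *Abcg1*, which exports cholesterol, had 3.21, 4.07 and 6.19 in MEC and 0.426, 0.748 and 1.39 in the lines, and it fell by 1.56 on the log2 scale (SE 0.31, limma adjusted p = 0.0286). *Mylip*, a ubiquitin ligase that limits the uptake of lipoproteins, had 5.49, 4.97 and 11.5 in MEC and 1.67, 0.599 and 0.594 in the lines, and it fell by 2.05 on the log2 scale (limma adjusted p = 0.0224). In these 3 genes the groups did not overlap.

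*Agpat5*, an acyltransferase of phosphatidate synthesis, had 11.2, 12.1 and 8.44 FPKM in MEC and 19.5, 35.8 and 41.3 in the lines (log2 difference 1.47, limma adjusted p = 0.0336). These 4 calls were lost in most fits on fewer libraries. With 1 library left out in turn, *Abcg1* kept its call in 2 of 6 fits and *Soat1*, *Mylip* and *Agpat5* in 1 of 6, that without line 199, while all kept their direction. The highest limma adjusted p in those fits was 0.114 for *Soat1*, 0.109 for *Abcg1*, 0.0820 for *Mylip* and 0.125 for *Agpat5*.

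**Figure D5:**
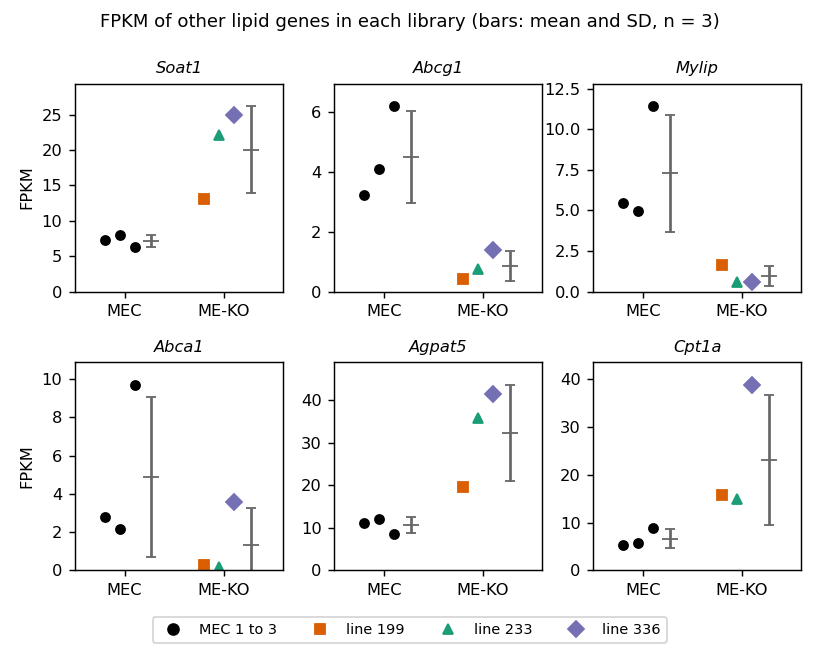
FPKM of 6 other lipid genes in each library, with circles for MEC 1 to 3, squares for line 199, triangles for line 233 and diamonds for line 336, and bars for the mean and SD of each group (n = 3). The vertical axes start at 0, where SD bars that run lower are not drawn. Soat1 and Agpat5 are higher in all 3 lines, and Abcg1 and Mylip lower in all 3.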

How the data were processed

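The authors aligned trimmed read pairs, 150 bases a read, to the mouse genome (GRCm38) with Bowtie2 and TopHat2 2.0.14, and computed FPKM per gene with Cufflinks 2.2.1. The deposited table holds these FPKM values, which Cufflinks scales by transcript length and by library size. FPKM carries no read numbers, so depth is unknown beyond its ratio between libraries, and no counting interval was made.

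Groups were taken from sample titles. Values were compared as log2(FPKM + 1) with limma 3.58.1 in R 4.3.3, with a trend in the variance prior and p-values adjusted by Benjamini-Hochberg over the 12461 entries, at the study's thresholds. P-values measure the spread between 3 libraries a group. The labels give no batch. The fit was tested on simulated data. Exact permutation tests used scipy. Positions, overlaps and similar transcripts (95% identity over 300 bases) come from GENCODE M21.

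The genes and lists were chosen with earlier results of these data known. Named were all genes of the list, called genes of the other lists (up to 5 a list), the targeted genes and defining markers. Some genes of the other lists are counted but not reported here by name. Alternatives were pseudocount, filter, scaling, trend, weights, fold threshold, grouping of the branches, entries summed per symbol, and each library left out.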

Additional observations from a re-analysis of the deposited data

Results flagged for a closer look

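*Scd1* stands out because tumor lines lay on opposite sides of the same MEC reference, each by more than the fold threshold. Its log2 difference from the MEC mean was 1.60 in line 336, and it was -2.69 in line 199 and -2.86 in line 233. No other gene of the list had lines beyond the threshold on opposite sides of the MEC range. Each line is 1 library, so the difference between the lines was not tested.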

How the results depend on the processing

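Of the alternatives for single genes of the list, 419 kept direction and call. Of the rest, 3 lost a call (*Srebf1*, with an MEC library left out), 8 gained one and 23 turned the sign of 12 genes. With sample weights 600 entries were called higher and 1378 lower, of the list 1 and 3, and of the other pathway genes 4 and 5. Quantile normalization called 1 gene of the list and 4 other genes higher. No expression filter left 1 other gene higher, and a filter at a mean FPKM of 5 left 501 entries and 0 other genes lower. With no fold threshold 2 genes of the list were called lower. With 1 library left out, calls ran from 48 to 568 higher and 211 to 1398 lower over all entries, 0 to 1 higher and 0 to 3 lower in the list, and 0 to 5 higher and 0 to 6 lower among other genes. The highest of these counts came without line 199, except that the 1 gene of the list called higher came without line 336. The cause of these was not tested, beyond fewer genes or libraries in a fit.

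The fatty acid median was -0.12 both without a filter and with a filter at 5, since *Acacb* joins or *Acss2* leaves, and -0.14 with glycerolipid genes included. With a difference beyond 0.75 also required, sterol genes below the MEC range numbered 6 in line 199, with 0 above and 1 below in line 233 and 1 and 1 in line 336. Fatty acid genes above and below then numbered 0 and 3, 1 and 4, and 1 and 2. The 4 fatty acid genes above in line 199 became 1 with quantile normalization and 2 with upper-quartile scaling.

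Signs turned for *Mvk* with upper-quartile scaling and sample weights (-0.036 and -0.039), for *Lpin1* with quantile normalization (0.045) and sample weights (0.077), and for *Dgat1* with sample weights (0.13). With 1 library left out, log2 differences ran from -0.12 to 0.0037 for *Srebf2*, -0.43 to 0.18 for *Insig1*, -0.18 to 0.26 for *Mvk*, -0.14 to 0.12 for *Sqle*, -0.60 to 0.14 for *Cyp51*, -0.034 to 0.78 for *Hsd17b7*, -0.35 to 0.014 for *Ebp*, -0.24 to 0.077 for *Acly*, -0.23 to 0.15 for *Elovl1*, -0.29 to 0.25 for *Elovl5*, -0.52 to 0.38 for *Lpin1* and -0.71 to 0.067 for *Dgat1*. Summing entries per symbol changed nothing, since each tested gene of the list has 1 entry. No paired analysis was possible because the groups share no replicate numbers. Depth is unknown, and genes under a mean FPKM of 1 were not tested.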

Other observations

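*Srebf1*, *Abcg1*, *Mylip* and *Abca1* are known targets of the liver X receptors, which respond to oxysterols, and they were put side by side after their values were seen. They are not a full list of such targets and do not describe the targets as a set. *Abca1*, the other cholesterol exporter, had an FPKM of 2.78, 2.15 and 9.71 in MEC and 0.269, 0.193 and 3.57 in lines 199, 233 and 336. Lines 199 and 233 lay under the MEC range and line 336 inside it, and the gene was not called (log2 difference -1.40, limma adjusted p = 0.238). MEC 3 was the highest library for all 4 of these genes. Of the receptors themselves, *Nr1h2* had 34.4, 33.3 and 45.3 in MEC and 19.9, 22.5 and 31.7 in the lines (log2 difference -0.60, limma adjusted p = 0.143), and *Nr1h3* was listed at 0.894 to 1.502 in MEC and 0.0495 to 0.709 in the lines and was not tested.

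*Plin2*, a coat protein of lipid droplets, had an FPKM of 312, 346 and 232 in MEC and 80.8, 252 and 464 in lines 199, 233 and 336. Line 336, which had the highest *Scd1* and *Dgat2*, had the highest *Plin2*, and line 199 had the lowest. *Cpt1a*, which carries fatty acids toward oxidation, lay above the MEC range in every line with 5.21, 5.65 and 8.86 in MEC and 15.8, 14.9 and 38.8 in the lines (log2 difference 1.57, limma adjusted p = 0.0576). Both were picked after their values were seen.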
